A study of Mus musculus with 6 samples.

Results

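The 9 genes described here mark monocytes and macrophages in the mouse: Chil3, Car4, Ly6c2, Plac8, Vcan, Lyz2, Adgre1, Spp1 and Mrc1. They were taken by symbol from a table of 26519 Ensembl genes, and all 9 had enough counts to be tested. RNA sequencing had been run on dendritic cells recovered from tumours 10 days after MC38 cells, a mouse colon carcinoma line, were inoculated. Of 6 libraries, 3 (labelled MAVS knockout) came from host mice lacking MAVS, the mitochondrial adaptor that relays signals from sensors of cytosolic RNA, and 3 (labelled WT) came from wild-type hosts. Both groups received the same tumour cells and no other agent is named; the knockout allele, the animals' age and the gate that defined a dendritic cell are not stated in the labels. Nor do they say whether replicates came from separate animals, and a p-value here reflects spread among libraries that may be technical.

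Classical monocytes leave the blood, enter tumours and mature there into macrophages. On the way they lose the surface antigen Ly6C and the programme that includes Plac8 and Vcan, and they gain the receptor F4/80, which Adgre1 encodes. Macrophages exposed to interleukin-4 raise the lectin Chil3 and the mannose receptor Mrc1, and those of hypoxic or lipid-rich tumour areas often secrete the Spp1 product osteopontin. Monocyte-derived cells in tumours can carry the integrin and class II molecules by which dendritic cells are commonly isolated.

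Chil3 and Car4 are the members that passed the test, and the 250 bases before their annotated starts are shown beside those of Chil4, the neighbouring copy of Chil3, and of Lyz2, a member at a similar level in both groups. The sequences are from RefSeq on GRCm38.p6, at chr3:106167565-106167814 (minus strand) for Chil3, chr3:106219480-106219729 (minus) for Chil4, chr11:84957504-84957753 (plus) for Car4 and chr10:117282273-117282522 (minus) for Lyz2. RefSeq starts can differ from the GENCODE gene bounds given below. The GENCODE Lyz2 gene ends at 117282321, inside the Lyz2 window, and that of Car4 begins at 84957786, past the Car4 window. Capitals mark the hexamer GGAAGT, the core bound by ETS factors such as PU.1, and TTCNNNGAA, a spacing bound by STAT factors, each searched on both strands.
Chil3: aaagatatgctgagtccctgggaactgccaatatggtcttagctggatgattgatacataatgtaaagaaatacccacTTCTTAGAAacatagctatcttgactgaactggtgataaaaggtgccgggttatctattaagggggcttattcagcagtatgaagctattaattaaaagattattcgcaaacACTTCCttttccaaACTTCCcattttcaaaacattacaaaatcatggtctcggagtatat
Chil4: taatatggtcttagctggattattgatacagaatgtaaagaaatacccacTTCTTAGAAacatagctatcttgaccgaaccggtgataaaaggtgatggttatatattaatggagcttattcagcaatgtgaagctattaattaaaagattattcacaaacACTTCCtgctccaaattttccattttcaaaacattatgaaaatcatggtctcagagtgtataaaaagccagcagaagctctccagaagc
Car4: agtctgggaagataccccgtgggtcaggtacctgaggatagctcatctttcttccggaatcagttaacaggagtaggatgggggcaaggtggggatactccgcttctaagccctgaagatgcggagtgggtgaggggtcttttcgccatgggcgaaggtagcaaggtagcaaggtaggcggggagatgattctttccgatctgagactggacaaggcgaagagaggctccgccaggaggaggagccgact
Lyz2: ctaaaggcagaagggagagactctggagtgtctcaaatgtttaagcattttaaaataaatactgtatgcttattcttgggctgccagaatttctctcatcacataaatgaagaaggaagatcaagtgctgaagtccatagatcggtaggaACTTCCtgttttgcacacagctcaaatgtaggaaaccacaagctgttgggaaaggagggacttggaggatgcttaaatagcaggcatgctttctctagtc

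The Chil3 window held ACTTCC, the reverse complement of GGAAGT, at 60 and 46 bases before the start, and TTCTTAGAA at 172 bases before it. Chil4 held ACTTCC and TTCTTAGAA, and Lyz2 held ACTTCC. In the Car4 window neither set of letters was found. The Chil3 and Chil4 windows were 90.1% identical over 223 aligned positions. Car4's window had 56.4% G and C bases, against 36.4% in Chil3. Of 8 members matched to a promoter entry (all but Adgre1), Chil3, Ly6c2, Lyz2, Spp1 and Mrc1 held GGAAGT on either strand, as did 19.99% of 27025 promoters of this length. TTCNNNGAA was in Chil3 alone among the 8 and in 7.18% of all promoters. The other STAT spacing searched, with 4 bases between the same triplets, was in 0 of the 8 and in 5.86% of all promoters. These matches describe the letters and no binding was measured.

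Library totals were 14466640 to 18862534 counts in knockout and 17357031 to 20851733 counts in wild-type libraries, and pairs of replicates correlated at 0.959 to 0.974 across genes. Mavs itself, the check of the labels, stood at 10.4 ± 2.09 CPM (counts over the library total, scaled by the TMM method) in knockout and 37.7 ± 3.32 CPM in wild-type libraries (SD, n = 3 each). Of dendritic cell genes, the class II gene H2-Ab1 stood at 14568 to 17718 CPM in knockout and 14791 to 16703 CPM in wild-type libraries, whereas a list of 10 cDC1 genes had a median log2 fold change of -0.65, with 3 of them lower in knockout libraries and 7 that did not pass. Across all 12580 tested genes 354 passed at an adjusted p below 0.05, 222 higher and 132 lower in knockout libraries, by edgeR's quasi-likelihood test. With library size alone in place of TMM the split was 102 higher and 341 lower, and that scaling moved the median gene to -0.17 on the log2 scale, while TMM put it at -0.0022. Directions below are relative to the TMM median.

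Of the 9 genes, Chil3 and Car4 rose in knockout libraries, none fell, and 7 did not pass. The called share, 2 of 9 or 22.2%, stands beside 2.81% of all tested genes called in either direction, 1.76% called higher and 1.05% called lower. The groups did not overlap for Chil3, Car4 and Mrc1, 3 of 9 or 33.3%, against 21.8% of all tested genes. The median log2 fold change of the 9 was 0.24. Among the 7 that did not pass, 4 had positive and 3 had negative estimates, and 5 of the 9 had an unadjusted p below 0.05, against 16% of all tested genes. DESeq2's Wald test called 4 of the 9, against 6.38% of the 12092 genes to which it gave an adjusted p. The members and the lists below were chosen with earlier results of these data known, so such shares are no test of an excess.

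**Figure D1:**
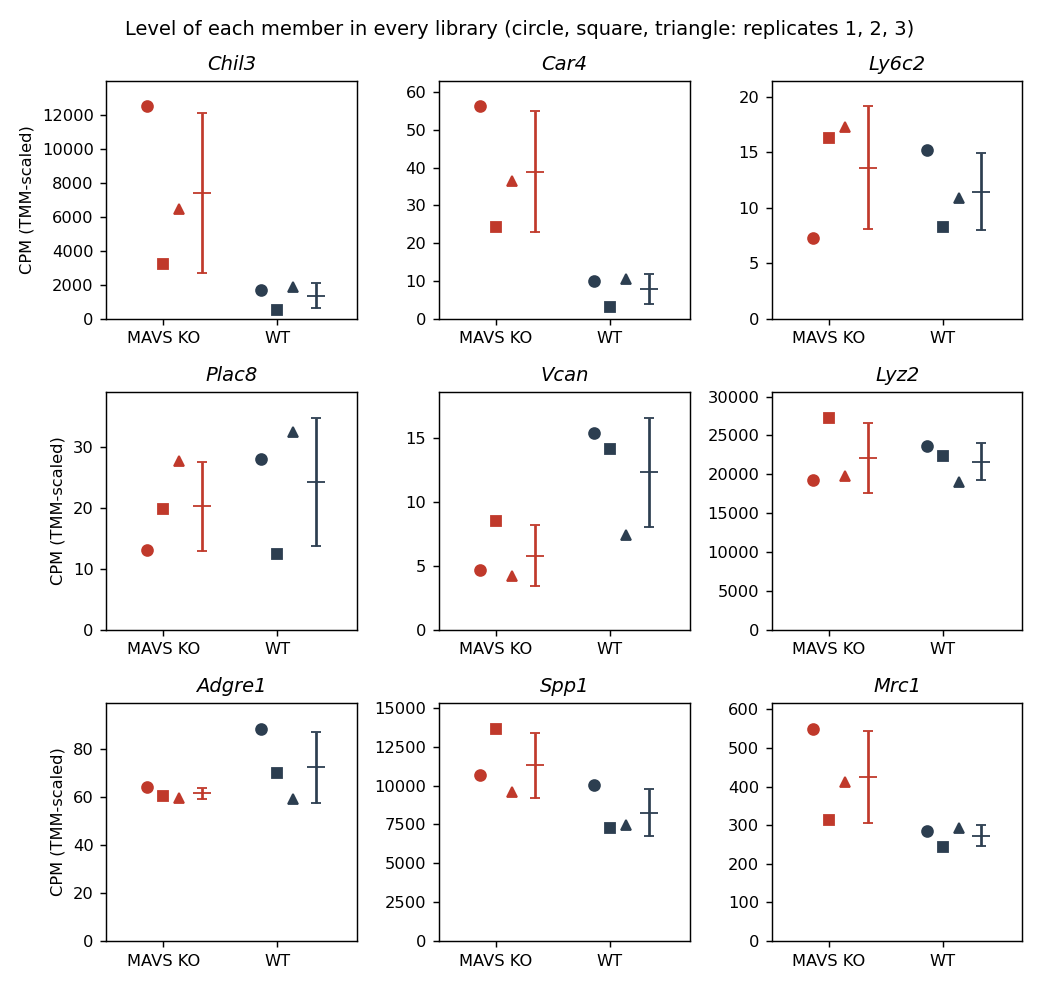
Level of each of the 9 genes in CPM (vertical axes, linear from 0, with a different scale in each panel) in the 3 MAVS knockout (red, left) and 3 WT libraries (dark, right). Symbols mark replicates, and the bar gives the mean and SD of each group. Chil3 and Car4 have the same order of libraries within each group, with knockout replicate 1 highest and WT replicate 2 lowest.

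Chil3 (ENSMUSG00000040809, chr3:106147554-106167564, minus strand, mm10) encodes a secreted chitinase-like lectin of monocytes, neutrophils and alternatively activated macrophages. It stood at 12484, 3237 and 6437 CPM in knockout replicates 1, 2 and 3, and at 1669.9, 515 and 1849.7 CPM in WT replicates 1, 2 and 3. Every knockout library lay above every WT library, although the highest knockout library was 3.86 times the lowest and the highest WT library 3.59 times the lowest. Means were 7386 ± 4696 CPM in knockout and 1345 ± 724 CPM in WT libraries (SD, n = 3 each). The log2 fold change was 2.46 (SE 0.51, 95% interval 1.32 to 3.59, adjusted p = 0.036 by edgeR), a 5.49-fold difference. Of the 6 fits without 1 library, only that without knockout replicate 2 kept the call (log2 fold change 2.82, adjusted p = 0.0366); the estimate was smallest, at 1.85, without knockout replicate 1 (adjusted p = 0.0966). The call was also lost with robust dispersion estimation (adjusted p = 0.192). Over the alternatives that kept the filter on low counts adjusted p ran from 0.000125 to 0.192. The lowest value came from a replicate block, though the labels do not say whether shared replicate numbers pair the samples. The next lowest was 0.0111, by DESeq2's Wald test.

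Car4 (ENSMUSG00000000805, chr11:84957786-84966044, plus strand) encodes carbonic anhydrase 4, an enzyme anchored on the outer membrane that interconverts carbon dioxide and bicarbonate. It is known from alveolar macrophages and from capillary endothelium. It stood at 56.2, 24.2 and 36.5 CPM in knockout replicates 1, 2 and 3, and at 10.01, 3.15 and 10.4 CPM in WT replicates 1, 2 and 3. The groups did not overlap, and knockout replicate 2, the lowest of its group, was still above the highest WT library. Means were 39.0 ± 16.1 CPM in knockout and 7.84 ± 4.07 CPM in WT libraries (SD, n = 3 each). The log2 fold change was 2.31 (SE 0.42, 95% interval 1.39 to 3.23, edgeR adjusted p = 0.023), a 4.95-fold difference from 361 to 1000 counts per knockout library and 59 to 225 per WT library. Leaving out a library kept the call in 4 of 6 fits. It was lost without knockout replicate 1 (log2 fold change 1.95, adjusted p = 0.077) and without knockout replicate 3 (2.36, adjusted p = 0.0909). Over the alternatives that kept the filter, adjusted p ran from 0.000725 to 0.0909. The lowest value again came from the replicate block, and the next lowest was 0.00453, by DESeq2's Wald test.

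**Figure D2:**
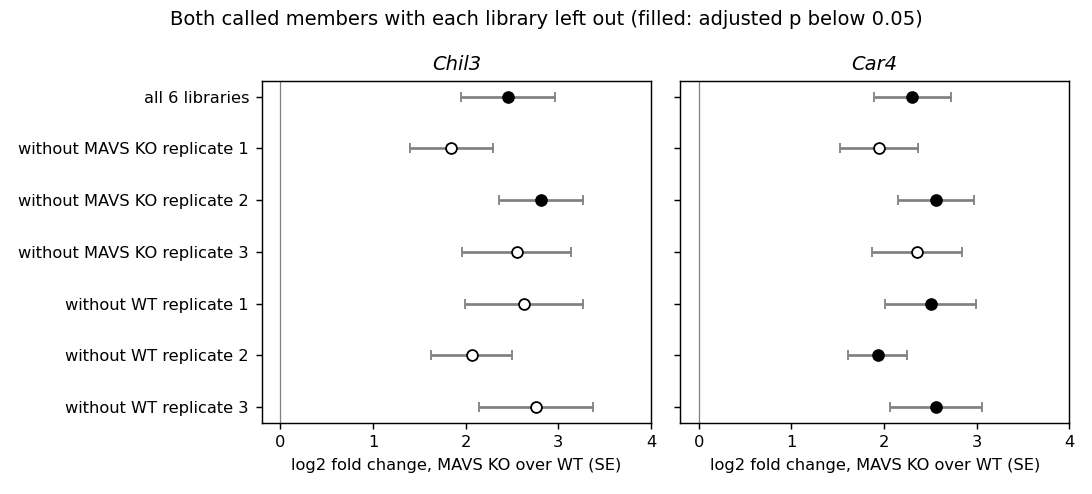
Log2 fold change of Chil3 (left) and Car4 (right), MAVS KO over WT, with all 6 libraries and with each library left out (rows). Bars are the SE derived from edgeR's F test. Filled points have an adjusted p below 0.05. All estimates lie between 1.85 and 2.82, while 1 of 6 reduced fits for Chil3 and 4 of 6 for Car4 pass.

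The classical monocyte genes Ly6c2, Plac8 and Vcan did not pass. Ly6c2 (ENSMUSG00000022584, chr15:75108158-75111970), which encodes the Ly6C antigen of classical monocytes, stood at 7.25, 16.2 and 17.3 CPM in knockout replicates 1, 2 and 3, against 15.2, 8.28 and 10.9 CPM in WT replicates 1, 2 and 3. The groups overlapped, and knockout replicate 1, the library with the most Chil3, had the least Ly6c2 of all 6. Its log2 fold change was 0.24 (SE 0.33, 95% interval -0.50 to 0.98, edgeR adjusted p = 0.805), and ran from 0.03 without knockout replicate 3 to 0.55 without knockout replicate 1.

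Plac8 (ENSMUSG00000029322, chr5:100553725-100572245) encodes a small cysteine-rich protein abundant in classical monocytes and plasmacytoid dendritic cells. It stood at 13.03, 19.9 and 27.7 CPM in knockout replicates 1, 2 and 3, within the WT range of 28.0, 12.4 and 32.3 CPM. Its log2 fold change was -0.27 (SE 0.35, 95% interval -1.04 to 0.50, edgeR adjusted p = 0.789), and ran from -0.59 without WT replicate 2 to -0.0045 without WT replicate 3.

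Vcan (ENSMUSG00000021614, chr13:89655312-89742509) encodes versican, a matrix proteoglycan that human and mouse monocytes make. It stood at 4.66, 8.52 and 4.17 CPM in knockout replicates 1, 2 and 3, from 57 to 127 counts, against 15.4, 14.1 and 7.42 CPM in WT replicates 1, 2 and 3, from 161 to 312 counts. Knockout replicates 1 and 3 lay below all WT libraries, and knockout replicate 2 lay above WT replicate 3. The estimate was -1.09 on the log2 scale (SE 0.35, 95% interval -1.86 to -0.31) and did not pass over all genes with edgeR (adjusted p = 0.148), whereas DESeq2's Wald test gave an adjusted p of 0.0393. Over the alternatives with the filter on low counts, adjusted p ran from 0.0393 to 0.397.

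Lyz2 (ENSMUSG00000069516, chr10:117277331-117282321), the lysozyme of monocytes, macrophages and neutrophils, stood at 19241, 27284 and 19789 CPM in knockout replicates 1, 2 and 3, against 23584, 22317 and 19007 CPM in WT replicates 1, 2 and 3. Both the highest and the second lowest library belonged to the knockout group, so the groups overlapped throughout. The log2 fold change was 0.03 (SE 0.14, 95% interval -0.27 to 0.33, edgeR adjusted p = 0.944). Its sign turned with library size alone, to -0.14, without knockout replicate 2, to -0.15, and without WT replicate 3, to -0.05.

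Adgre1 (ENSMUSG00000004730, chr17:57358691-57483527), the F4/80 receptor gene, stood at 64.3, 60.6 and 59.8 CPM in knockout replicates 1, 2 and 3, against 88.5, 69.8 and 59.2 CPM in WT replicates 1, 2 and 3. The knockout libraries lay close together, at 1.08 times from lowest to highest, and above WT replicate 3. The log2 fold change was -0.24 (SE 0.15, 95% interval -0.57 to 0.10, edgeR adjusted p = 0.51), and ran from -0.36 without WT replicate 3 to -0.07 without WT replicate 1.

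Spp1 (ENSMUSG00000029304, chr5:104435118-104441050) encodes osteopontin, a secreted ligand of CD44 and of several integrins. It stood at 10687, 13665 and 9617 CPM in knockout replicates 1, 2 and 3, against 10031, 7288 and 7468 CPM in WT replicates 1, 2 and 3. Knockout replicates 1 and 2 lay above all WT libraries, and knockout replicate 3 lay below WT replicate 1. The estimate was 0.45 on the log2 scale (SE 0.15, 95% interval 0.12 to 0.79, edgeR adjusted p = 0.164) and did not pass. It ran from 0.30 without knockout replicate 2 to 0.61 without WT replicate 1.

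Mrc1 (ENSMUSG00000026712, chr2:14229392-14332057) encodes the mannose receptor CD206, an endocytic lectin of tissue macrophages, and lies 117 Mb from Mavs on the same chromosome. It stood at 549.9, 313 and 413 CPM in knockout replicates 1, 2 and 3, against 284, 243 and 293 CPM in WT replicates 1, 2 and 3. The groups did not overlap, and knockout replicate 2 was the nearest to the highest WT library. The estimate was 0.64 on the log2 scale (SE 0.18, 95% interval 0.24 to 1.03, edgeR adjusted p = 0.0965) and did not pass, whereas DESeq2's Wald test gave an adjusted p of 0.0131. Over the alternatives with the filter, adjusted p ran from 0.0131 to 0.253, and the estimate was smallest, at 0.41, without knockout replicate 1.

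**Figure D3:**
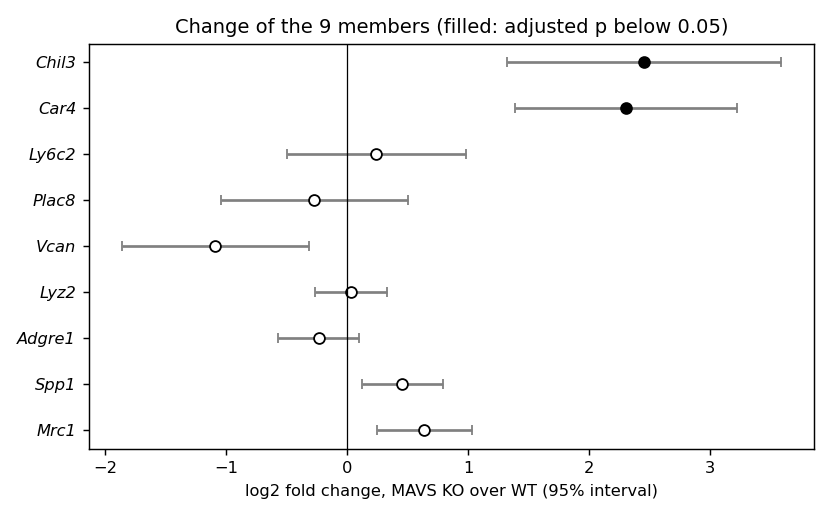
Log2 fold change of the 9 genes, MAVS KO over WT, from edgeR's fit (horizontal axis) with 95% intervals; filled points have an adjusted p below 0.05 over all tested genes. Chil3 (2.46) and Car4 (2.31) are filled, while the intervals of Vcan, Spp1 and Mrc1 exclude 0 without passing the adjustment.

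Set against Adgre1 in the same library, which cancels scaling, Mrc1 and Spp1 separated the groups. The log2 ratio of Mrc1 to Adgre1 CPM was 2.37 to 3.10 in knockout and 1.68 to 2.30 in WT libraries, and that of Spp1 to Adgre1 was 7.33 to 7.82 against 6.71 to 6.98. The log2 ratio of Vcan to Adgre1 overlapped, at -3.84 to -2.83 in knockout and -3.00 to -2.30 in WT libraries. These ratios were chosen after the values were seen and carry no test. In bulk RNA, more cells of a type and more RNA per cell cannot be told apart.

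Per length of exon, the 9 genes spanned from the most abundant transcript of the libraries to a rare one. On the TPM scale (counts per kb of merged GENCODE M21 exon, scaled here to the same total in each library), Lyz2 ranked 1 of all genes in both groups, at 42674 ± 8322 TPM in knockout and 47835 ± 5261 TPM in WT libraries (SD, n = 3 each). Spp1 ranked 3 in knockout libraries, at 17464 ± 3137 TPM, and 4 in WT libraries, at 14536 ± 2225 TPM. Chil3 ranked 9 in knockout libraries, at 11566 ± 7482 TPM, where its range overlapped that of Spp1, and 54 in WT libraries, at 2369.9 ± 1241 TPM. Mrc1 stood at 170 ± 49.5 TPM in knockout and 125 ± 8.65 TPM in WT libraries.

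The lower part of that order was crowded. In knockout libraries Car4 (50.5 ± 21.5 TPM), Adgre1 (48.4 ± 2.42) and Plac8 (32.2 ± 11.5) were neighbours: the range of Car4 overlapped those of both others, while Adgre1 stayed above Plac8. They were followed by Ly6c2 (12.6 ± 5.01) and Vcan (1.01 ± 0.41). In WT libraries Adgre1 (65.0 ± 11.9 TPM) overlapped Plac8 (43.9 ± 18.2), and Ly6c2 (12.1 ± 3.25) and Car4 (11.5 ± 5.75) overlapped as well, with Vcan last at 2.48 ± 0.86. Car4 thus ranked 2288 by mean TPM in knockout and 6026 in WT libraries, while Ly6c2 ranked 5382 and 5884. The place of Ly6c2 depends on the length used. Its merged exons span 2740 bases and its longest protein-coding transcript 822, so its TPM is lower here than with that transcript.

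The members also differed in how far replicates of 1 group spread. The SD of log2 CPM within groups was 1.00 for Chil3 and 0.80 for Car4, higher than in 99.8% and 99.4% of 8988 tested genes with a mean of at least 5 CPM. It was 0.65 for Plac8, 0.58 for Ly6c2 and 0.56 for Vcan, each above at least 96.6% of those genes. Lyz2 (0.23), Adgre1 (0.21), Spp1 (0.26) and Mrc1 (0.30) were nearer the median of 0.20.

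Chil3 and Car4 varied together from library to library. After each gene was centred on its mean over the 6 libraries, the root mean square difference between the profiles of Chil3 and Car4 was 0.24 log2 units, against a spread of 1.47 for Chil3 itself. Among 8676 named genes of at least 5 CPM, Car4 was the nearest to Chil3 and Chil3 the nearest to Car4. The log2 ratio of Chil3 to Car4 CPM stayed between 7.06 and 7.80 in all 6 libraries. A share of this likeness is the group difference that both genes show.

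The next nearest to Chil3 was Ccl24, an eosinophil-attracting chemokine of alternatively activated macrophages, at a difference of 0.36. Ccl24 stood at 1079.5, 226 and 722 CPM in knockout replicates 1, 2 and 3, against 138, 25.0 and 134 CPM in WT replicates 1, 2 and 3, so its highest and lowest libraries were those of Chil3. The second nearest to Car4 was the growth factor gene Igf1, at 0.40, with 27.9, 16.2 and 17.3 CPM against 11.3, 1.92 and 7.46 CPM. Igf1 did not pass (log2 fold change 1.57, SE 0.48, edgeR adjusted p = 0.128).

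Mrc1 was nearest to Mgl2, another macrophage and dendritic cell lectin, at 0.097. Mgl2 stood at 3339, 1626 and 2593 CPM in knockout replicates 1, 2 and 3, against 1552, 1460.5 and 1767 CPM in WT replicates 1, 2 and 3, and did not pass (log2 fold change 0.66, SE 0.21, edgeR adjusted p = 0.14). Vcan was nearest to the DNA repair gene Brca1 and to Cd276, both at 0.16. Lyz2 was nearest to Impad1 and Fam208b, Adgre1 to Arl16 and Siva1, Spp1 to Samd4b and Fbxo8, Ly6c2 to Rpl23a and Shld2, and Plac8 to Ptpn18 and Ifi205, at differences of 0.051 to 0.23. Of the 36 pairs of members, the nearest after Lyz2 with Adgre1 (0.23) was Chil3 with Car4, and the farthest was Chil3 with Vcan (2.08). Lyz2 and Adgre1 spread by only 0.19 and 0.20 about their own means, so their small difference does not show that they varied together.

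**Figure D4:**
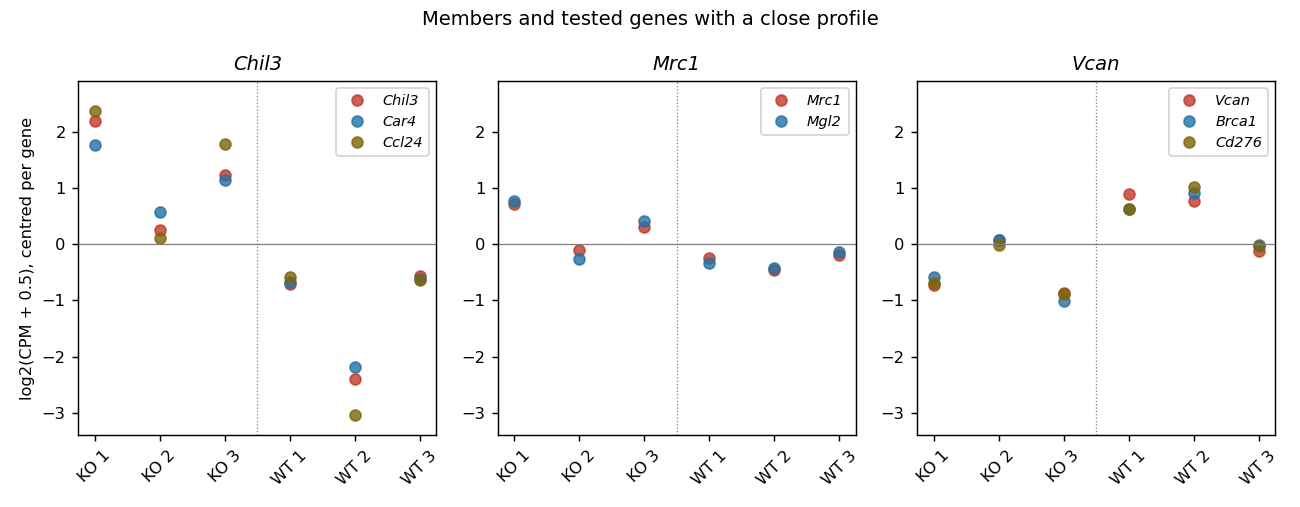
Profiles of Chil3, Mrc1 and Vcan (panels) and of tested genes near to each (2 for Chil3 and Vcan, 1 for Mrc1), as log2(CPM + 0.5) centred on each gene's mean (vertical axis), in the 3 knockout libraries (left of the dotted line) and 3 WT libraries. Car4 follows Chil3 within 0.24 log2 units on root mean square, and both are lowest in WT replicate 2.

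Close copies can take reads from 3 of the members. Transcripts of Chil3 and Chil4 were 94.3% identical over 1540 aligned positions, those of Ly6c2 and Ly6c1 97.6% over 822, and those of Lyz2 and Lyz1 95.8% over 1264. Chil4 had 36, 1 and 20 counts in knockout replicates 1, 2 and 3, against 1, 0 and 5 counts in WT replicates 1, 2 and 3, at most 0.0228% of the pair, so summing left Chil3 at 2.46. Ly6c1 stood at 3.76, 10.4 and 7.18 CPM in knockout and 3.15, 2.46 and 2.76 CPM in WT libraries without overlap (log2 fold change 1.34, SE 0.38, edgeR adjusted p = 0.101), and held 29.3% to 39.0% of the pair's counts in knockout against 17.2% to 22.9% in WT libraries. Ly6c1 and Ly6c2 taken singly are therefore uncertain: summing the pair moved the estimate of Ly6c2 to 0.54 (SE 0.32, edgeR adjusted p = 0.47). Lyz1 stood at 24.3, 49.9 and 29.4 CPM against 192, 44.0 and 54.4 CPM, a spread set by WT replicate 1, and did not pass (log2 fold change -1.49, SE 0.49, edgeR adjusted p = 0.164).

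Of 10 tested relatives of the members, 2 rose, 1 fell and 7 did not pass, with a median log2 fold change of 0.55. Ly6a, the Sca-1 antigen of the Ly6 family on chromosome 15, rose to 778, 1053 and 1172 CPM in knockout replicates 1, 2 and 3, against 494, 340 and 582 CPM in WT replicates 1, 2 and 3 (log2 fold change 1.08, SE 0.20, edgeR adjusted p = 0.0244). Its neighbour Ly6i had an estimate of 1.10 (SE 0.28, adjusted p = 0.0712), whereas Ly6e had 0.10 (SE 0.12). Among carbonic anhydrases, the cytosolic Car13 rose by 0.95 (SE 0.22, adjusted p = 0.0489), a call lost in 12 of 16 alternatives, and Car2 had an estimate of 0.15 (SE 0.38). Adgre5, the CD97 receptor of the same family as F4/80, fell by 0.67 on the log2 scale (SE 0.15, adjusted p = 0.0464), a call lost in 8 of 16 alternatives.

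Among 18 tested further genes of classical monocytes, 2 rose, 1 fell and 15 did not pass (median 0.17). Those 15 had 11 positive and 4 negative estimates. Of the 18, 10 had an unadjusted p below 0.05 by edgeR, against 16% of all tested genes. DESeq2's Wald test called 7, against 6.38% of all genes, and the groups did not overlap for 11, against 21.8%. Ccr2, the receptor by which monocytes leave the marrow, stood at 1095, 1069 and 1180.2 CPM in knockout replicates 1, 2 and 3, against 1341, 1226 and 1183 CPM in WT replicates 1, 2 and 3, and did not pass (log2 fold change -0.17, SE 0.09). The chemokine receptor Ccr1 rose by 0.48 (SE 0.09, edgeR adjusted p = 0.0244) and the glutathione transferase Mgst1 by 0.89 (SE 0.16, adjusted p = 0.0233). The matrix glycoprotein gene Thbs1 fell by 1.84 (SE 0.37, adjusted p = 0.0327). Of 12 genes of nonclassical monocytes the Fc receptor Fcgr4 rose by 1.27 (SE 0.22), the fractalkine receptor Cx3cr1 fell by 1.42 (SE 0.29), and 10 did not pass (median -0.15).

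Of 22 tested further macrophage genes 2 rose, none fell and 20 did not pass, with 11 positive and 9 negative estimates among those 20 and a median of 0.24. By edgeR 14 of the 22 had an unadjusted p below 0.05, against 16% of all tested genes. DESeq2's Wald test called 6, against 6.38% of all genes, and the groups did not overlap for 12, against 21.8%. C1qa had an estimate of 0.39 (SE 0.10, edgeR adjusted p = 0.0634) and Apoe of -0.84 (SE 0.21, edgeR adjusted p = 0.0646). The lysosomal protease Ctsd rose by 0.75 (SE 0.09, edgeR adjusted p = 0.00806), and the scavenger receptor Msr1 by 0.55 (SE 0.12, adjusted p = 0.0364). The summed level of the list was 16575 to 17434 CPM in knockout and 12122 to 13647 CPM in WT libraries. Ctsd made up 5165 to 5965 CPM and 3010 to 3484 CPM of it.

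Genes of alternatively activated macrophages, the state in which Chil3 and Mrc1 are best known, rose in part. Of 13 tested, 6 rose, none fell and 7 did not pass (median 0.66, against -0.0022 over all tested genes). Of all tested genes 1.76% were called higher. Mgl2 and Clec10a of this list, neither of which passed, are also counted among the cDC2 markers. The libraries are labelled dendritic cells, and which cells carried these transcripts, the 6 risen ones included, was not tested. Besides Ccl24 (log2 fold change 2.77, SE 0.63, edgeR adjusted p = 0.0464, lost in 7 of 16 alternatives), the risen genes were Arg1, Pdcd1lg2, Clec7a, Tgm2 and Ccl22, from 0.66 to 1.63. The arginase Arg1 stood at 12659, 10457 and 10923 CPM in knockout replicates 1, 2 and 3, against 5400.3, 4661 and 6802 CPM in WT replicates 1, 2 and 3, and kept its call in all 16 alternatives.

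Retnla, which interleukin-4 induces together with Chil3 in mouse macrophages, did not pass (log2 fold change -1.46, SE 0.87, edgeR adjusted p = 0.471). It stood at 122, 31.2 and 74.7 CPM in knockout replicates 1, 2 and 3, against 539, 30.8 and 58.7 CPM in WT replicates 1, 2 and 3, with WT replicate 1 apart from the other libraries. Alox15, a lipoxygenase of the same state, stood at 50.5, 12.3 and 19.9 CPM in knockout and 13.2, 1.98 and 6.77 CPM in WT libraries and did not pass either (1.92, SE 0.61, adjusted p = 0.146).

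**Figure D5:**
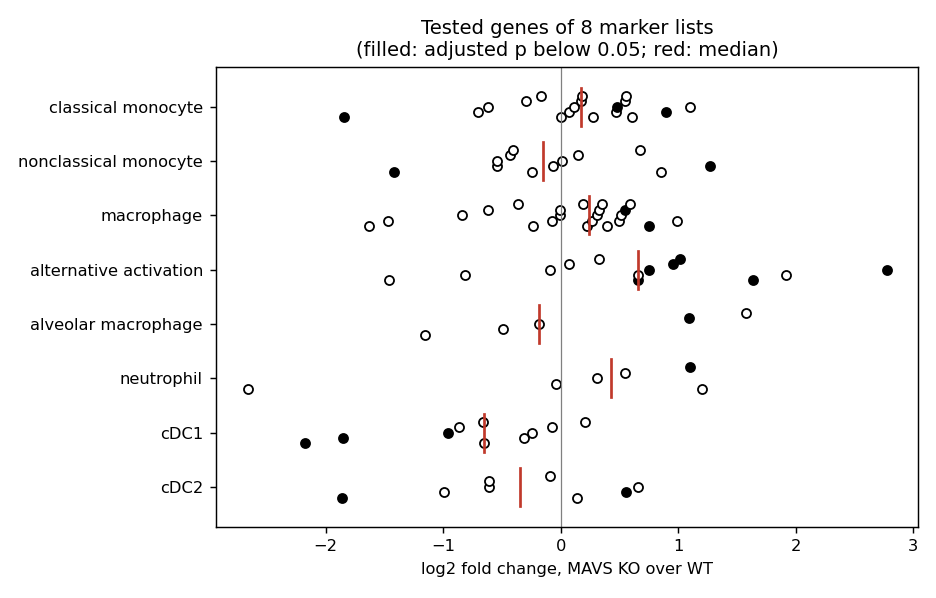
Log2 fold change, MAVS KO over WT (horizontal axis), of each tested gene in 8 marker lists (rows); filled points have an adjusted p below 0.05 and the red line is the median of the list. Medians run from -0.65 for cDC1 to 0.66 for alternative activation, and 6 of the 13 alternative activation points are filled, all to the right of 0. Mgl2 and Clec10a appear in both the alternative activation and the cDC2 rows.

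Chil3 and Car4 are also known from other cells. The markers of those cells ran from 0 counts to well over the filter, and their part in the Chil3 and Car4 results was not tested. Of 12 alveolar macrophage markers 5 were tested; Slc7a2, an arginine transporter, rose by 1.09 (SE 0.20, edgeR adjusted p = 0.0266) and 4 did not pass (median -0.19). The list summed to 1187 to 1958 CPM in knockout and 667 to 933 CPM in WT libraries, mostly from Slc7a2. Atp6v0d2, a proton pump subunit, stood at 41.4 to 143 CPM in knockout and 18.5 to 32.2 CPM in WT libraries (log2 fold change 1.57, SE 0.39, adjusted p = 0.0673), and the ribonuclease Ear2 at 42.2 to 106 CPM against 64.2 to 198 CPM. Ear1 had 0 counts over the knockout and 4 over the WT libraries, and Krt79 had 0 and 1. Of 16 neutrophil markers 6 were tested and the collagenase Mmp8 rose by 1.10 (SE 0.13, adjusted p = 0.00686). The other 5 did not pass, with 3 positive and 2 negative estimates (median of the 6, 0.43). Among those 5, Mmp9 had the largest estimate, at -2.66 (SE 0.90, edgeR adjusted p = 0.173). It stood at 0.90, 4.90 and 5.35 CPM in knockout replicates 1, 2 and 3, against 19.2, 48.6 and 1.93 CPM in WT replicates 1, 2 and 3. Ly6g, which defines neutrophils, had 0 counts over the knockout and 1 over the WT libraries, S100a9 had 3 and 3, whereas the receptor gene Csf3r stood at 22.3 to 25.9 CPM against 16.6 to 24.9 CPM, and the summed level of the list was 98.4 to 104 CPM in knockout and 60.2 to 106 CPM in WT libraries. Of 7 eosinophil markers only Siglecf was tested and did not pass (-1.15, SE 0.61), and the list summed to 1.57 to 6.10 CPM against 4.10 to 13.2 CPM.

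The summed level of the endothelial markers was higher in knockout libraries, while 1 of them passed. Of 5 tested of 10 listed, Flt1, a VEGF receptor that macrophages also carry, rose by 1.89 (SE 0.35, edgeR adjusted p = 0.0261) and 4 did not pass, among them Kdr, another VEGF receptor, at -0.77 (SE 0.42; median of the 5, 0.73). The list summed to 118 to 224 CPM in knockout and 49.9 to 98.8 CPM in WT libraries, mostly from Flt1 and Pecam1. Cdh5, the cadherin that defines endothelium, had 0 counts over the knockout and 6 over the WT libraries, and Tek had 4 and 15. Their part in the Car4 result was not tested.

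Some dendritic cell genes fell beside the rise of Chil3 and Car4, and their part in it was not tested. Of 10 cDC1 markers Xcr1, Itgae and Wdfy4 fell and 7 did not pass (median -0.65), with a summed level of 1283 to 1464 CPM in knockout and 1245 to 1964 CPM in WT libraries. That sum came mostly from Naaa, Irf8 and Ppt1, which did not pass. Of the 7 that did not pass, 6 had negative estimates and 1, Irf8, a positive one (0.21, SE 0.20). Clec9a, also among the 7, stood at 7.15 ± 0.79 CPM in knockout and 7.49 ± 2.49 CPM in WT libraries (log2 fold change -0.07, SE 0.28). Xcr1 stood at 7.79 ± 1.75 CPM in knockout and 35.1 ± 12.9 CPM in WT libraries (SD, n = 3 each). Of 8 cDC2 markers Cd209a fell, Sirpa rose and 6 did not pass (median -0.35). The list summed to 2649 to 4439 CPM against 2348 to 2624 CPM, mostly from Sirpa and from Mgl2, which the alternative activation list also holds. Cd209a stood at 22.2 ± 7.36 CPM in knockout and 80.1 ± 17.1 CPM in WT libraries (SD, n = 3 each). Of 9 further dendritic cell genes Flt3, Zbtb46 and Kmo fell, Ccr7 rose and 5 did not pass (median 0.03). This list summed to 39695 to 50131 CPM against 35828 to 43330.0 CPM, mostly from Cd74 and H2-Ab1. Lists of plasmacytoid dendritic cells (6 tested), T and natural killer cells (15), fibroblasts (6) and epithelial tumour cells (3) had no gene called by edgeR or by DESeq2's Wald test, with 1, 2, 0 and 0 genes of these lists, in that order, at an unadjusted p below 0.05. Of 2 tested B cell genes Ighm fell by 1.93 (SE 0.23).

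Of the called genes named from these lists, Arg1, Mmp8, Xcr1, Cd209a, Kmo and Ighm kept their calls in all 16 alternatives. Ctsd lost its call where a log2 fold change of at least 1 was asked, and Flt3 lost it without knockout replicate 1. The calls of the others were lost in 3 to 12 of the 16, each in at least 1 fit without a single library.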

How the data were processed

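The table deposited by the authors holds unnormalized counts, 1 whole number per mouse Ensembl gene and library. HISAT2 (also HISAT), HTSeq, DESeq2 and the mm10 build appear in the submitters' processing notes, without role or version; no source names the annotation or strand setting, so reads of near-identical or antisense genes may be misassigned. Symbols, positions and exon lengths came from GENCODE M21 (GRCm38), matching 26356 of 26519 identifiers. The test was edgeR's quasi-likelihood F test (version 4.0.16, R 4.3.3) with no covariate, after TMM scaling and a filterByExpr filter (10 counts, 15 in total), with Benjamini-Hochberg adjustment over all tested genes and a threshold of 0.05. SE was derived from that test, as the absolute log2 fold change over the square root of F. The 95% intervals are that SE times a t quantile on either side of the estimate. With 3 against 3 libraries an exact permutation test could not go below 0.10. Alternatives were scaling by library size alone or by DESeq2 size factors, no filter, a mean of at least 5 CPM, DESeq2 1.42.0, limma-voom (limma 3.58.1), a replicate block, robust dispersion, a minimum log2 fold change of 1, summing close copies, thinning, and each library left out; statements over 16 alternatives leave out the summing. Profiles used log2(CPM + 0.5); transcripts and promoters were aligned with Biopython 1.88. The procedure was tested on simulated counts. Genes are named by rule (members, close relatives, the smallest p and most abundant of each list, and the 2 nearest profiles). Ccr2, Retnla, Alox15, H2-Ab1, Ear2, Csf3r, Spi1, Cd44, Il4ra, Ccl22, Tgm2, Zbtb46, Apoe, Irf8, Ppt1, Clec9a, Dpp4, Clec10a and the markers named for their low counts fall outside it, chosen once their values had been seen. Some results are not reported here. The members and lists were chosen with earlier results of these data known. Replicates differed beyond sampling noise (chi-square over degrees of freedom 15.9 to 38.8), so none was counted as a duplicate.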

Additional observations from a re-analysis of the deposited data

How the results depend on the processing

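Across the alternatives the count of called members was 5 with no filter on low counts, 4 with DESeq2's Wald test and 1 with robust dispersion estimation, and 0 to 2 with a library left out (0 without knockout replicate 1 or 3). The count of called genes was 924 with no filter, 772 with DESeq2's Wald test, 149 with a log2 fold change of at least 1, and 36 to 277 with a library left out. In the fit with no filter the prior degrees of freedom of the dispersion were infinite, against 6.41 with the filter, so its p-values do not carry each gene's own spread. With a replicate block 414 genes and 3 members were called, the third being Mrc1 (log2 fold change 0.61, edgeR adjusted p = 0.0432). Across all genes, deviations of same-numbered libraries from their group means correlated at 0.0383, 0.0866 and -0.0428. Those of differently numbered libraries correlated at -0.138 to 0.122. With 3 libraries per group these values cannot decide whether shared numbers pair the samples, and the labels do not say. Lyz2 turned to -0.14 with library size alone, and ran from -0.15 to 0.12 with a library left out. The direction of the other 8 members was kept in each alternative run. Thinning each library to 14466640 counts, added after seeing the data, left 2 members called. With 57 to 312 counts per library, counting error limits Vcan more than the abundant members.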

Other observations

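Of 23 tested transcription factors of monocyte and macrophage fate none passed in either direction by edgeR's quasi-likelihood test, with 15 positive and 8 negative estimates and a median log2 fold change of 0.16; 6 had an unadjusted p below 0.05, against 16% of all tested genes, and DESeq2's Wald test called 2, against 6.38% of all genes. Hif1a, the oxygen-sensing factor, had an estimate of 0.43 (SE 0.13, adjusted p = 0.107), and Spi1, which encodes PU.1, had -0.10.

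Of 17 tested receptors and partners of the proteins that Spp1, Vcan and Mrc1 encode, or of the growth factors and cytokines that act on macrophages, none passed by edgeR (median 0.07), 3 had an unadjusted p below 0.05 and DESeq2's Wald test called 1, beside the same 16% and 6.38% of all genes. The osteopontin receptor Cd44 stood at 517, 546 and 480.2 CPM in knockout replicates 1, 2 and 3, against 425, 501 and 459 CPM in WT replicates 1, 2 and 3. Itgb3, an integrin chain that binds osteopontin, stood at 14.4, 4.16 and 8.06 CPM in knockout and 2.51, 4.97 and 4.70 CPM in WT libraries (log2 fold change 1.13, SE 0.43, edgeR adjusted p = 0.227), with its highest value in knockout replicate 1. Il13ra1, a chain of the interleukin-4 and interleukin-13 receptor, had an estimate of 0.49 (SE 0.13, adjusted p = 0.0771), and its partner Il4ra had 0.07.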
